A study of Mus musculus with 9 samples.

Results

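Pou4f3, Gfi1, Barhl1, Lhx3, Insm1 and Nhlh1 encode transcription factors that act in hair cells after Atoh1 has started hair cell differentiation. Open chromatin at these 6 genes was read from 9 lists of ATAC-seq peaks, an assay in which a transposase inserts adapters where DNA is accessible. A peak was given to a gene when its summit lay nearest, within 500 kb, to a start site of that gene among the protein-coding transcripts of GENCODE vM1 on mm9. This gave 92 of 286921 peaks, which merged into 29 of 69395 regions when peaks of a gene within 100 bp of each other were joined. All 92 peaks belonged to 5 of the 6 genes, since each of the 7 annotated transcripts of Gfi1 carries the type processed transcript and none is called protein-coding. Values for Gfi1 come from a separate setting, chosen after seeing the data, in which its transcripts were counted as protein-coding, and counts are over the other 5 genes unless Gfi1 is named.

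The study profiled cells of the mouse cochlear duct at embryonic days E12, E14.5 and E16 to map open chromatin of the prosensory domain, from which hair cells and supporting cells arise. All embryos were of the strain B6;129S-Sox2tm2Hoch/J, an EGFP knock-in at Sox2, and were heterozygous, so that every group carried 1 functional copy of Sox2. Cells bright for EGFP were sorted as Sox2-EGFP+ and cells without EGFP as Sox2-EGFP-, while dim cells were left out. Each Sox2-EGFP+ replicate was a pool of cochlear ducts from 1 litter, with 2 replicates for every stage. Sox2-EGFP- cells gave 1 list from E14.5 and 2 from E16, and no E12 Sox2-EGFP- list was used here. P-values compare groups of these lists, in which stages and list lengths are mixed, so they do not measure the spread between litters alone. The study's methods state that Sox2-EGFP- cells were in some cases isolated alongside Sox2-EGFP+ cells. The tests took all lists as independent, apart from a test of replicate pairs at Lhx3. For 3 of the 4 E16 samples the cell type tag named the other sorted population than the title and source name did, and groups follow the titles.

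Hair cells are the mechanosensory cells of the cochlea and differentiate from Sox2-expressing progenitors, beginning near the base of the duct and spreading to the apex. Atoh1, a basic helix-loop-helix factor, starts the process, and factors switched on after it shape the maturation, survival and subtype of the new hair cells. A promoter or distal element may become accessible before its gene is strongly transcribed, so open chromatin and expression are separate measurements.

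Windows of 300 bases from 4 regions that the results return to are shown here, so that the letters can be read beside their values. Coordinates are those of mm9, and each window is written 5′ to 3′ on the strand of the gene. The Lhx3 window ends at the base before the most upstream annotated start site, is intergenic by annotation, and holds the summit of the 1 member promoter with peaks in both cell populations. The window of Barhl1 at -7.42 kb is intergenic and stands for a distal region with peaks in Sox2-EGFP+ lists alone, where negative offsets lie upstream of the start site. The window of Insm1 at 4.81 kb is intergenic and had peaks in both cell populations, while that at 103 kb lies in an intron of Ralgapa2 and had peaks in Sox2-EGFP+ lists alone. Capitals mark matches, on either strand, to any of 8 motifs: the E-box CAGCTG, a second E-box spelled CAGATG, the Sox motif ACAAAG, a second Sox motif spelled ACAATG, the Tead motif GGAATG, the Gata motif AGATAA, the homeodomain motif TAATTA, or the Rfx motif GTTGCC. The Lhx3 window held a match to none of the 8 motifs.
Lhx3 promoter, chr2:26063770-26064069, minus strand: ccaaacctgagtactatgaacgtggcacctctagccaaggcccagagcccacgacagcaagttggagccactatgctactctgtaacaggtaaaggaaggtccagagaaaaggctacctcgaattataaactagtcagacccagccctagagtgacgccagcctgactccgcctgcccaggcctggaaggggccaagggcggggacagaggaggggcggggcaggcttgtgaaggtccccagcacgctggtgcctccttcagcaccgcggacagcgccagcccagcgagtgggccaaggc
Barhl1 -7.42 kb, chr2:28779453-28779752, minus strand: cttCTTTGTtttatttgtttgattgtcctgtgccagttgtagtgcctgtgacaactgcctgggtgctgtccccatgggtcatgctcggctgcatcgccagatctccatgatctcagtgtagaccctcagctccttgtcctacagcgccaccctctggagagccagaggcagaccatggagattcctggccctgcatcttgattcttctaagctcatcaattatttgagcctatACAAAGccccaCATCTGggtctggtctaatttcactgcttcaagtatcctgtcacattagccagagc
Insm1 +4.81 kb, chr2:146052315-146052614, plus strand: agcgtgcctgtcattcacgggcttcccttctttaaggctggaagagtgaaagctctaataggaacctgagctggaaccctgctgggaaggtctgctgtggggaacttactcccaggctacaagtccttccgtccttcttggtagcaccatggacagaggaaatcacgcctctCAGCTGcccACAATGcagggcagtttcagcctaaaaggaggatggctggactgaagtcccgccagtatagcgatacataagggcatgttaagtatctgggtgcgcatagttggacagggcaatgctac
Insm1 +103 kb, chr2:146150661-146150960, plus strand: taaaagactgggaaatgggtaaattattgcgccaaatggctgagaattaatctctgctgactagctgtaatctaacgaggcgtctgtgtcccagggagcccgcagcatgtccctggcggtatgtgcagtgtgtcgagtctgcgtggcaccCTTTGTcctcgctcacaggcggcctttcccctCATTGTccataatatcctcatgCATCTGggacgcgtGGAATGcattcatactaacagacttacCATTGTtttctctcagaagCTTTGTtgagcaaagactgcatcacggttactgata

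The lists differed in length, and this bears on every count that follows. At E12 they held 13817 and 7577 peaks in replicates 1 and 2. Lists of later Sox2-EGFP+ cells were longer, with 66332 and 22962 peaks from E14.5 and 39314 and 65870 from E16. Those of Sox2-EGFP- cells numbered 23302 peaks from E14.5 (replicate 2) and 23848 and 23899 from E16. Short lists were made up more of promoter peaks, which were 58.1% and 65.7% of the E12 lists against 22.3% of the longest. A promoter here spans the 1000 bp before a start site and the 100 bp after it, and regions that overlapped none were called distal. Read depths and shares of reads in peaks were not used here, so the absence of a peak shows only that none was listed. Because a bulk sample mixes cells, fewer cells of a type and a weaker signal per cell cannot be told apart.

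The sort was checked at marker loci. At the 9 prosensory genes, 106 of 126 distal regions had peaks in Sox2-EGFP+ lists alone, near the 78.6% of all distal regions. Sox2 itself, the gene that carries the reporter, had a promoter peak in all 9 lists, and 30 of its 33 distal regions were in Sox2-EGFP+ lists alone. At the 5 otic mesenchyme genes the pattern was the opposite, with 3 of 18 distal regions in Sox2-EGFP+ lists alone and 8 in Sox2-EGFP- lists alone. For the E16 samples with conflicting tags, the E16 Sox2-EGFP- lists held 14 and 13 of these 18 mesenchyme regions, beside 19% and 18.2% of all distal regions. The E16 Sox2-EGFP+ lists held 7 and 9, beside 43.4% and 87.5%. The mesenchyme loci followed the titles at E16, while the pooled prosensory share by itself did not set the populations apart. List by list, E14.5 replicate 2 held 27% of the prosensory regions in Sox2-EGFP+ cells, beside 18.2% of all. In Sox2-EGFP- cells it held 13.5%, beside 17.5%. The E16 Sox2-EGFP- lists held 14.3% and 11.9%, below their shares of all. The E16 Sox2-EGFP+ lists held 42.9% and 88.9%, near theirs.

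Loci of other cell types were not empty in the Sox2-EGFP+ lists. Distal regions in Sox2-EGFP+ lists alone were 17 of 28 at the 7 spiral ganglion neuron genes and 13 of 15 at the 5 glial genes. They were 6 of 7 at the macrophage genes, of which 4 of 5 were annotated under the name used (Spi1 was not) and none had a promoter peak. At the 4 endothelial genes they were 20 of 26, with no peak at Tie1, and at the 4 roof genes 23 of 29. Most of these shares were near that of all distal regions, so presence in Sox2-EGFP+ lists alone does not by itself mark a prosensory locus. By list the glial regions stood out. E14.5 Sox2-EGFP+ replicate 2 held 46.7% of them, beside 18.2% of all distal regions. The Sox2-EGFP- lists held 6.67% at E14.5 and 13.3% and 6.67% at E16. Insm1 and Nhlh1 are also expressed in neurons. The neurogenic genes Neurod1 and Neurog1 each had a promoter peak in 3 Sox2-EGFP+ lists and in no Sox2-EGFP- list, and 1 and 2 of their 4 distal regions each had an E12 peak. Snap25 had the same promoter presence, while Tubb3 and Elavl4 had promoter peaks in 2 and 3 Sox2-EGFP- lists, and Prph and Stmn2 had none. The Sox2-EGFP- lists of E14.5 and E16 held 39.3%, 35.7% and 28.6% of the neuron distal regions, beside 17.5%, 19% and 18.2% of all. E14.5 Sox2-EGFP+ replicate 2 held 32.1%, beside 18.2%. The study's methods describe removing the spiral ganglion at dissection and gating on the brightest cells, and what part any remaining neurons had in the peaks at Insm1 and Nhlh1 was not tested.

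Promoter peaks of the hair cell factors were counted by stage, and those of Sox2-EGFP+ cells lay within about 1 gene of the share of all genes. At E12, 1 of 5 genes had a promoter peak in at least 1 Sox2-EGFP+ list, beside 39.5% of all 22225 protein-coding genes. The 1 gene was Barhl1, in replicate 2 alone, and without that list the count was 0. At E14.5, 4 of 5 had one in Sox2-EGFP+ cells (Pou4f3, Barhl1, Lhx3 and Nhlh1), beside 63.8% of all genes. The same 4 genes had one at E16, beside 63.3%. In Sox2-EGFP- lists only Lhx3 had a promoter peak, 1 of 5 genes, beside 56.7%. Leaving out E14.5 replicate 1 lowered the E14.5 count to 2, and leaving out E16 replicate 1 lowered the E16 count to 2, since Pou4f3 and Nhlh1 had promoter peaks in those 2 lists alone. With Gfi1 the counts were 1, 5, 5 and 1 of 6 in the same order. With every list at the 7577 peaks of the shortest, they were 1 at E12, 0 at E14.5, 1 at E16 and 0 in Sox2-EGFP- lists, beside 31.6%, 34.4%, 36.4% and 39.5% of all genes. Counts this low could hardly show a difference between stages.

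**Figure D1:**
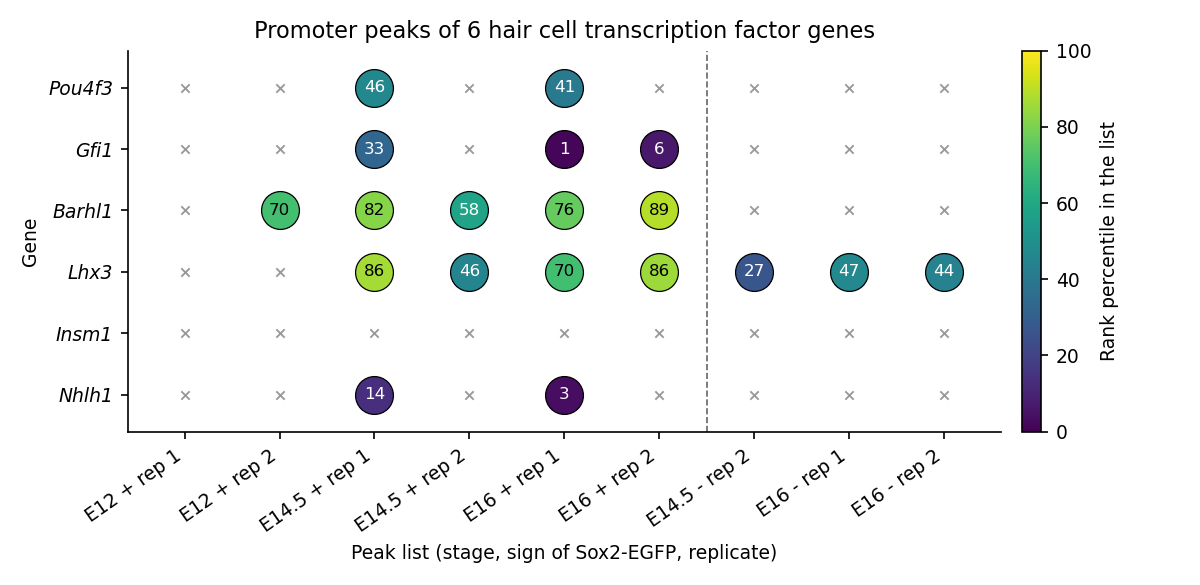
Promoter peaks of the 6 genes (rows) in the 9 lists (columns, with Sox2-EGFP+ left and Sox2-EGFP- right of the dashed line). Filled circles give the rank percentile of the highest promoter peak within its list, by -log10 p, and crosses mark no peak; the row of Gfi1 uses its own setting. Barhl1 has circles in 5 Sox2-EGFP+ lists and none in Sox2-EGFP- lists, Lhx3 has circles in 7 lists, and Insm1 has none.

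Distal regions showed no E12 peak at any member. Of the 25 distal regions, 0 had a peak in an E12 list, beside 9.64% of all 53750 distal regions, and with Gfi1 the count was 0 of 27. In E14.5 Sox2-EGFP+ lists 24 of 25 had a peak, beside 92.8% of all, and in those of E16 all 25 did, beside 91.8%. The 24 came from replicate 1, while the shorter replicate 2 held 4, all of them at Pou4f3. Both E16 Sox2-EGFP+ lists held 13 of the 25, beside 39.2% of all distal regions. Peaks were in Sox2-EGFP+ lists alone at 21 of 25 regions, beside 78.6% of all distal regions, a share near the background. These counts depend on the start sites used. With those of all annotated transcripts, 15 distal regions were given to the 6 genes, 13 of them in Sox2-EGFP+ lists alone, beside 79.3% of all, with 6 at Pou4f3, 1 at Gfi1, 2 at Barhl1, 0 at Lhx3, 3 at Insm1 and 3 at Nhlh1. Of the 25, the other 4 also had Sox2-EGFP- peaks, 3 at Insm1 and 1 at Nhlh1, and none had Sox2-EGFP- peaks alone, beside 6.89% of all.

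The E12 lists could hold few distal regions of any gene. E12 replicates 1 and 2 covered 8.21% and 3.76% of all distal regions, against 92.4% for E14.5 Sox2-EGFP+ replicate 1. The members' distal regions in each list followed the number of all distal regions there, from 0 in both E12 lists to 3 or 4 in the Sox2-EGFP- lists and 24 in the longest list. E16 Sox2-EGFP+ replicate 1 stood above that relation, with 18 of 25 member regions beside 43.4% of all distal regions. The E12 lists were not without peaks around the members. Within 500 kb of their start sites, E12 peaks numbered 9 at Pou4f3, 18 at Barhl1, 36 at Lhx3, 4 at Insm1 and 14 at Nhlh1, and these lay nearest to other genes except for the Barhl1 promoter peak. In the same order 8, 10, 19, 3 and 7 of them were promoter peaks, so these are not counts of distal regions.

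**Figure D2:**
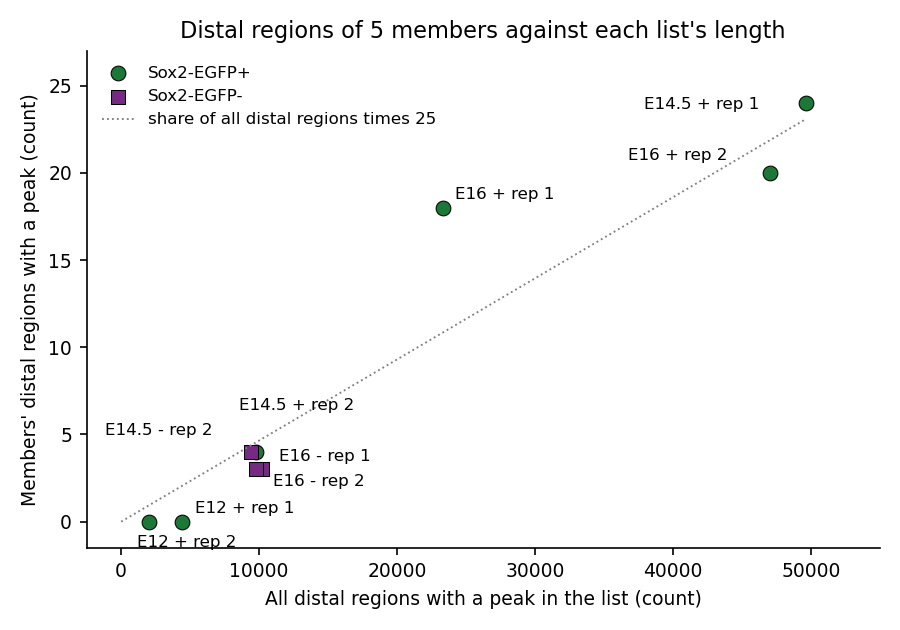
Distal regions of the 5 genes with a peak in each list (vertical axis, count) against all distal regions with a peak in that list (horizontal axis, count). Circles are Sox2-EGFP+ lists, squares Sox2-EGFP- lists, and the dotted line is the share of all distal regions times 25. The 2 E12 lists lie at 0, and E16 Sox2-EGFP+ replicate 1, with 18 regions, lies above the line.

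Presence was tested between the 6 Sox2-EGFP+ and 3 Sox2-EGFP- lists with Fisher's exact test, two-sided. The authors had kept a peak only where another sample of the same cell type had an overlapping one. Lists of a cell type are therefore not independent, and a Sox2-EGFP+ peak had more lists in which it could be found again. The p-values of presence do not allow for this. Over all 22225 promoters 0 passed after Benjamini-Hochberg adjustment and 149 had an unadjusted p under 0.05, and over all 69395 regions these counts were 0 and 3495. The smallest p that these 9 lists allow is 0.0119. Of the 5 member promoters 1, Barhl1, had an unadjusted p under 0.05 with more Sox2-EGFP+ lists, beside 0.567% of all promoters. Of the 25 distal regions 0 did, beside 3.13% of all distal regions. That 0 follows from the lack of E12 peaks, since presence in all 4 later Sox2-EGFP+ lists and no Sox2-EGFP- list gives p = 0.167 by Fisher's exact test. The E12 lists had no Sox2-EGFP- list of their stage beside them, so that stage and cell population are mixed in this test. The test was therefore also run over the 7 lists of E14.5 and E16 alone, a setting chosen after seeing the data, in which the smallest p, that of a peak in 4 of 4 against 0 of 3 lists, is 0.0286. By it 1 of the 5 member promoters, again Barhl1, had an unadjusted p under 0.05 with more Sox2-EGFP+ lists, beside 1.5% of all promoters, and 2 of the 25 distal regions did, at -51.1 and -15.6 kb from Pou4f3, beside 8.41% of all distal regions. After adjustment of these Fisher's exact tests 0 of all promoters and 0 of all regions passed, with adjusted p = 1 for Barhl1 and 0.299 for both regions.

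Pou4f3, a POU-homeodomain factor needed for the maturation and survival of hair cells, had the only distal regions of the 5 genes that were in all 4 Sox2-EGFP+ lists of E14.5 and E16. Its single start site lies at chr18:42554251 on the plus strand, in a stretch of 82.8 kb nearer to it than to another gene. There it had 7 distal regions, all intergenic and all in Sox2-EGFP+ lists alone, at -51.1, -41.2, -30, -15.6, -8.33, 6.94 and 22.1 kb. Among all protein-coding genes, 10.5% had at least as many. Presence in Sox2-EGFP+ lists alone was not particular to Pou4f3, since 78.6% of all distal regions had it. All 5 distal regions of Barhl1 had it too. So did 9 of 9 at Loxhd1, a hair cell gene, and 8 of 8 at Isl1, a prosensory gene, against 15 of 16 at Pcdh15. The regions at -51.1 kb (chr18:42502926-42503311) and -15.6 kb (chr18:42538333-42539419) were the 2 in all 4 of those lists, as were 14.7% of all distal regions.

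At the region at -51.1 kb, -log10 p was 42.6 and 7.87 at E14.5 and 8.49 and 18.7 at E16, in replicates 1 and 2. These heights are set by each list's own scale, and as rank percentiles within the list, where 100 is the top, they were 75.4, 32.7, 23 and 77. At -15.6 kb the percentiles were 76.9, 28.5, 48.4 and 80.7 in the same order. Percentiles move with list length, and counted from the top the ranks were 16317, 15401, 29951 and 15171 at -51.1 kb and 15321, 16420, 20305 and 12692 at -15.6 kb, where the E14.5 replicates were close. The highest percentile at Pou4f3 was at -8.33 kb (chr18:42545659-42546268), with 82.3 in E14.5 replicate 1, no peak in replicate 2, and 58.9 and 75.4 at E16. The promoter peak had percentiles of 46.5 in E14.5 replicate 1 and 40.8 in E16 replicate 1, and was in no other list. In E14.5 replicate 1, 4 of the 7 distal regions were ranked above the promoter, and in E16 replicate 1, 2 were, at -15.6 and -8.33 kb. Over all 9 lists, Fisher's exact p was 0.167 for the 2 regions in 4 lists and 0.464 or 0.5 for the others, with adjusted p = 0.624 for each.

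Gfi1, a zinc finger repressor needed for hair cell differentiation and survival, was read in its own setting, with 16 peaks in 4 regions. No E12 list had a peak there. Its promoter regions lay in 2 places, at 0.193 and -0.548 kb from the nearest of its 5 start sites, each in E14.5 Sox2-EGFP+ replicate 1 and both E16 Sox2-EGFP+ lists. In E16 replicate 1 the peak of the region at 0.193 kb, with a percentile of 21, ended short of the promoter window. The highest peaks that overlapped a promoter had percentiles of 32.7 in E14.5 replicate 1 and 1.27 and 6.25 at E16. The intergenic region at 35.9 kb (chr5:108116863-108117779) was instead in all 7 lists of E14.5 and E16. Its percentiles were 65.9, 34.4, 53.4 and 83.4 in the Sox2-EGFP+ lists and 55.3, 50.5 and 58.5 in the Sox2-EGFP- lists, so the populations overlapped. The other distal region, at 2.26 kb in an exon of Gfi1, was in 3 Sox2-EGFP+ lists alone.

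Barhl1, a homeodomain factor required for the long-term maintenance of hair cells, had the 1 E12 peak among the members. The promoter region (chr2:28771361-28771937) has its summit in an annotated untranslated region of the gene, 0.163 kb downstream of the nearest of 5 start sites. In E12 replicate 2 its peak had a -log10 p of 10.1, a fold enrichment of 6.44 over the local background and rank 2251 of 7577, a percentile of 70.2. In E12 replicate 1, the longer list, it had no peak, so the authors' filter kept the E12 peak through its overlap with later Sox2-EGFP+ peaks. The percentiles were 82 and 58 at E14.5 and 76.4 and 88.9 at E16 in Sox2-EGFP+ cells. No Sox2-EGFP- list had a peak there. Presence in 5 of 6 Sox2-EGFP+ and 0 of 3 Sox2-EGFP- lists gave Fisher's exact p = 0.0476, two-sided, with adjusted p = 1 over all promoters. This test takes the lists as independent, which the filter does not leave them.

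When each list was reduced to its 7577 highest peaks, the length of the shortest, the Barhl1 promoter was the only member region left, in E12 replicate 2 and E16 replicate 2. Its 5 distal regions were all in Sox2-EGFP+ lists alone and none at E12. That at -7.42 kb (chr2:28779406-28779790) had percentiles of 60 in E14.5 replicate 1 and 53.3 and 18.9 at E16. Those at -49.5, -57.9 and -60.2 kb lie in introns of 1700101E01Rik, and that at 3.95 kb lies in an untranslated region of Barhl1. None of the 5 was in E14.5 replicate 2. Only 2 were ranked above the middle of any list, those at -7.42 and -60.2 kb, the latter with 51.7 in E14.5 replicate 1.

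Lhx3, a LIM-homeodomain factor of hair cells, was the 1 member whose promoter had peaks in both sorted populations. The region (chr2:26063628-26064037) was in all 4 Sox2-EGFP+ and all 3 Sox2-EGFP- lists of E14.5 and E16 and in no E12 list. The percentiles in Sox2-EGFP+ cells were 86.5 and 45.6 at E14.5 and 69.7 and 85.5 at E16, and in Sox2-EGFP- cells 26.7 at E14.5 and 47 and 44.4 at E16. The lowest Sox2-EGFP+ value, in E14.5 replicate 2, lay below the highest Sox2-EGFP- value, from E16, so the groups overlapped across stages. Between lists of the same stage and replicate number Sox2-EGFP+ was higher each time, by 18.8 at E14.5 and by 22.7 and 41.1 at E16. The mean percentile was 71.8 (SD 19.1, n = 4) against 39.3 (SD 11, n = 3), a difference of 32.5, with exact permutation p = 0.0857, two-sided, and adjusted p = 0.392 over 10399 genes with a promoter peak in all 7 lists. The smallest p that these 7 lists allow is 0.0286. Over those genes 0 passed after adjustment and 1093 had an unadjusted p under 0.05, and 10.5% had such a p with Sox2-EGFP+ above Sox2-EGFP-, where Lhx3, 0 of 1 member, did not. A difference at least as high was found at 4.68% of them. No member promoter had a peak in all 9 lists, so the same test over 9 lists had no member among its 4551 genes, of which 0 passed after adjustment and 177 had an unadjusted p under 0.05.

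A percentile also moves with list length, since a long list holds more weak peaks under a given promoter. Counted from the top, the Lhx3 peak stood at ranks 8963, 12497, 11930 and 9546 in the Sox2-EGFP+ lists and 17075, 12647 and 13290 in the Sox2-EGFP- lists. In these ranks the groups did not overlap, and exact permutation p was 0.0571 with adjusted p = 0.558, a setting chosen after seeing the data. Lhx3 had 2 distal regions, at 22.4 and 37.6 kb, both intergenic, both in E14.5 replicate 1 and E16 replicate 2 of the Sox2-EGFP+ cells alone. Their highest percentiles were 55.1 and 42.5.

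Insm1, a zinc finger factor made transiently in nascent outer hair cells, had no promoter peak in any list and, with start sites of protein-coding transcripts, the most distal regions of the 6 genes. Its 8 distal regions lay at 1.4, 4.81, 7.3, 26, 59.7, 69.1, 85.3 and 103 kb, all downstream of its single start site at chr2:146047657. Of all genes, 8.43% had at least as many. With start sites of all annotated transcripts 3 were left to it. The first lies in the coding exon, the next 2 are intergenic, and the 5 farther ones lie in introns of Ralgapa2, the neighbouring gene, whose start site is farther away. The upstream neighbour 4930529M08Rik starts 7.31 kb away, so the assignment left Insm1 little room upstream, and the first region on that side, at -53.5 kb from Insm1, was given to that neighbour. Which gene, if any, these regions act on was not measured.

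The missing promoter peak of Insm1 was set beside its base composition, a comparison made after its values were seen. The ratio of observed to expected CpG in its promoter was 0.891, and 2.92% of genes had a ratio at or above it. Of these 649 genes, 98.6% had a promoter peak in at least 1 list and 79.8% had one at E12, against 64.2% and 39.5% of all genes. Insm1 was therefore among the few CpG-rich promoters with no listed peak. The other members had ratios of 0.757 at Gfi1, 0.502 at Pou4f3, 0.46 at Barhl1, 0.272 at Lhx3 and 0.151 at Nhlh1, beside a median of 0.407 over all genes. The members without an E12 promoter peak lay on both sides of that median. Of genes at or above it 66.3% had an E12 promoter peak, against 12.7% of genes below it, where Lhx3 and Nhlh1 lay.

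Insm1 had 3 of the 4 distal regions of the members with Sox2-EGFP- peaks. At 69.1 kb (chr2:146116625-146117025) all 3 Sox2-EGFP- lists had a peak, with percentiles of 17.2, 34.6 and 18.9, against 31.1, 29.1 and 76 in E14.5 replicate 1 and the E16 replicates of Sox2-EGFP+ cells, which overlapped. At 4.81 kb (chr2:146052295-146052701) the percentiles were 71.5, 47.1 and 62.1 in the same Sox2-EGFP+ lists and 14.8 and 34 in E14.5 and E16 replicate 2 of Sox2-EGFP- cells, and counted from the top the ranks were 18934, 20785 and 24988 against 19848 and 15761. The percentiles did not overlap and the ranks did, so this region did not separate the populations. At 85.3 kb (chr2:146132879-146133249) Sox2-EGFP- lists ranked higher on both scales, with percentiles of 17.6 and 27.1 in Sox2-EGFP+ lists and 51.5 and 50 in Sox2-EGFP- lists, and with ranks from the top of 54635 and 47966 against 11305 and 11916. These are descriptions of the lists with a peak, with no test. The highest percentile of the gene was 86.5, in E16 replicate 2 at 103 kb (chr2:146150648-146151001), where E14.5 replicate 1 had 70.9 and E16 replicate 1 had 23. No Sox2-EGFP- list had a peak there.

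Nhlh1, a basic helix-loop-helix factor of nascent hair cells and developing neurons, had weak peaks throughout. Its promoter peak had percentiles of 13.5 in E14.5 replicate 1 and 3.28 in E16 replicate 1 and was in no other list. The region at 3.48 kb (chr1:173983712-173984481), in its coding exon, was in all 3 Sox2-EGFP- lists, with percentiles of 14.9, 7.7 and 10.6, and in 2 Sox2-EGFP+ lists, with 26.3 and 21.2. Counted from the top the order turned, with ranks of 19820, 22013 and 21359 against 48918 and 51879, so this region gave no direction. The intergenic regions at 9 and 10.5 kb were each in 2 Sox2-EGFP+ lists, and that at 9 kb was the 1 distal region of the members first listed at E16. No Nhlh1 peak exceeded a percentile of 38.9. Its neighbours Vangl2 and Copa left it the shortest stretch of the 6 genes, 27 kb, so fewer regions could be given to it.

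**Figure D3:**
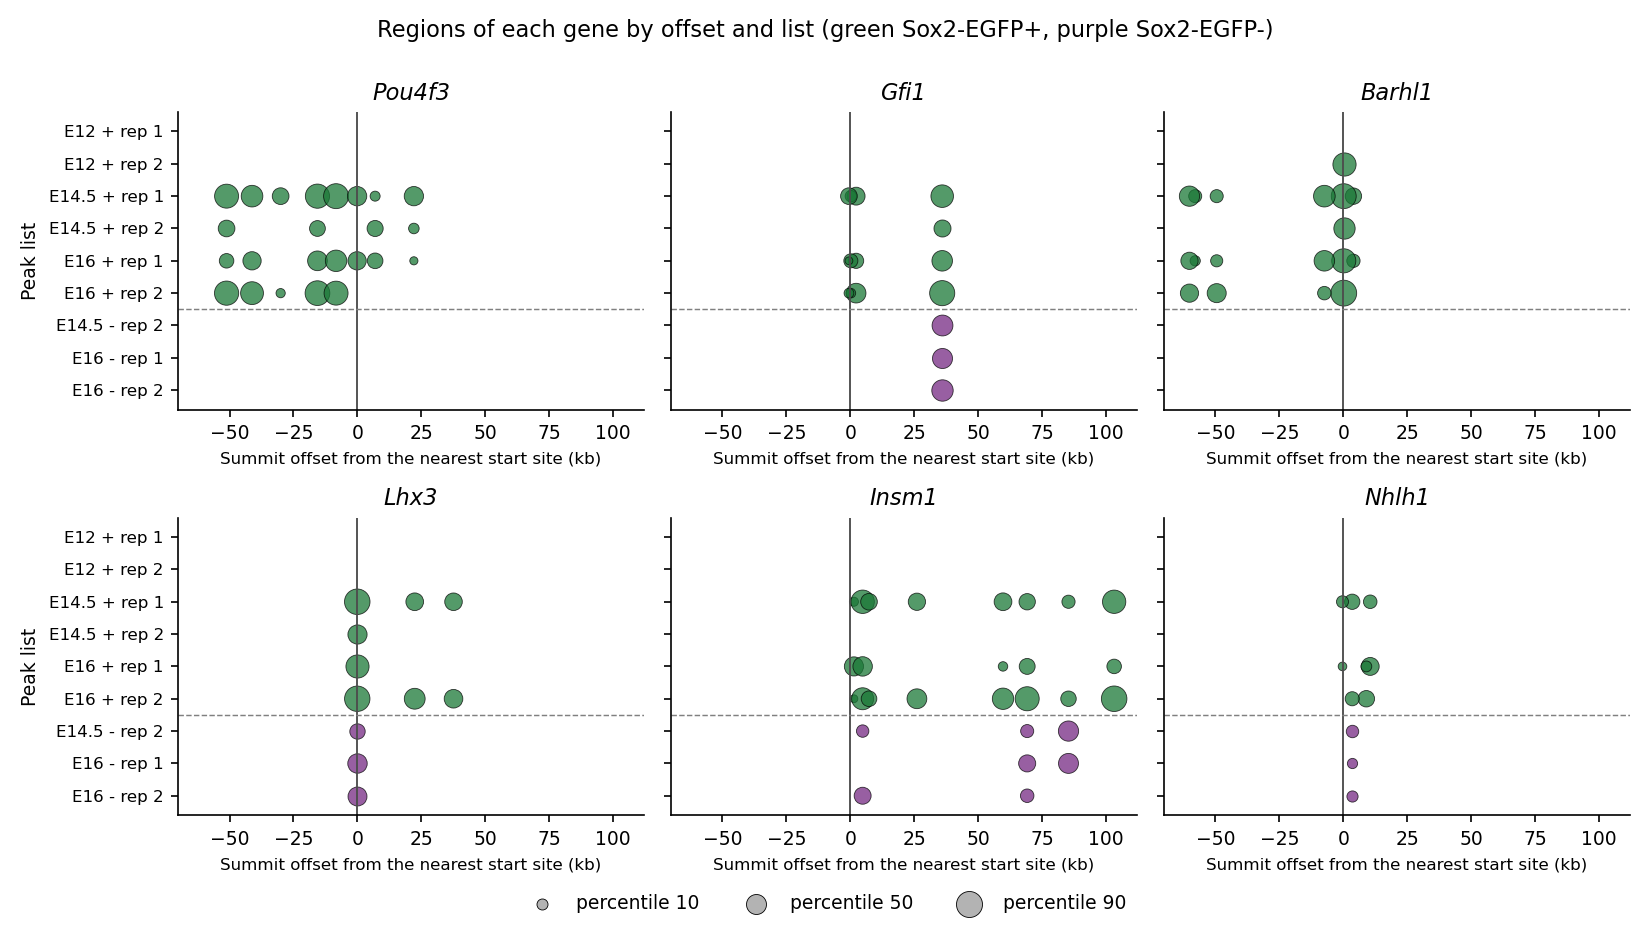
Promoter and distal regions of each gene by the offset of their summit from the nearest start site (horizontal axis, kb, negative upstream) and by list (vertical axis). Green points are Sox2-EGFP+ lists, purple points Sox2-EGFP- lists, and point area grows with the rank percentile in the list; Gfi1 uses its own setting. Pou4f3 and Barhl1 have regions on both sides of their start sites and no purple point, those of Insm1 all lie downstream and reach 103 kb, and the 1 E12 point is at the Barhl1 promoter.

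Distal regions were next counted in lists of equal length. With every list at 7577 peaks, 0 distal regions of the 5 genes were left in any list, while all genes kept 5896, of which 64.5% were in Sox2-EGFP+ lists alone. At this length the members' distal regions were thus absent from the E14.5 and E16 lists too. With the E14.5 and E16 lists at 22962 peaks each, a setting chosen after seeing the data, 13 distal regions were left, 9 of them in Sox2-EGFP+ lists alone, beside 55.1% of 25816 over all genes. Pou4f3 kept 6, all in Sox2-EGFP+ lists alone, with 3 and 4 at E14.5 and 2 and 4 at E16. Insm1 kept 5, of which 2 were in Sox2-EGFP+ lists alone and 1 in Sox2-EGFP- lists alone. Barhl1 kept 1, Lhx3 none, and Nhlh1 1, in Sox2-EGFP- lists alone. Pou4f3 was thus the 1 gene of the 5 with several distal regions in Sox2-EGFP+ lists and none in Sox2-EGFP- lists both as deposited and at 22962 peaks, though it had none at 7577. How many genes outside the 5 keep such a pattern was not counted. At 22962 peaks the promoters of Barhl1 and Lhx3 kept peaks in all 4 Sox2-EGFP+ lists, and those of Pou4f3 and Nhlh1 had none.

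**Figure D4:**
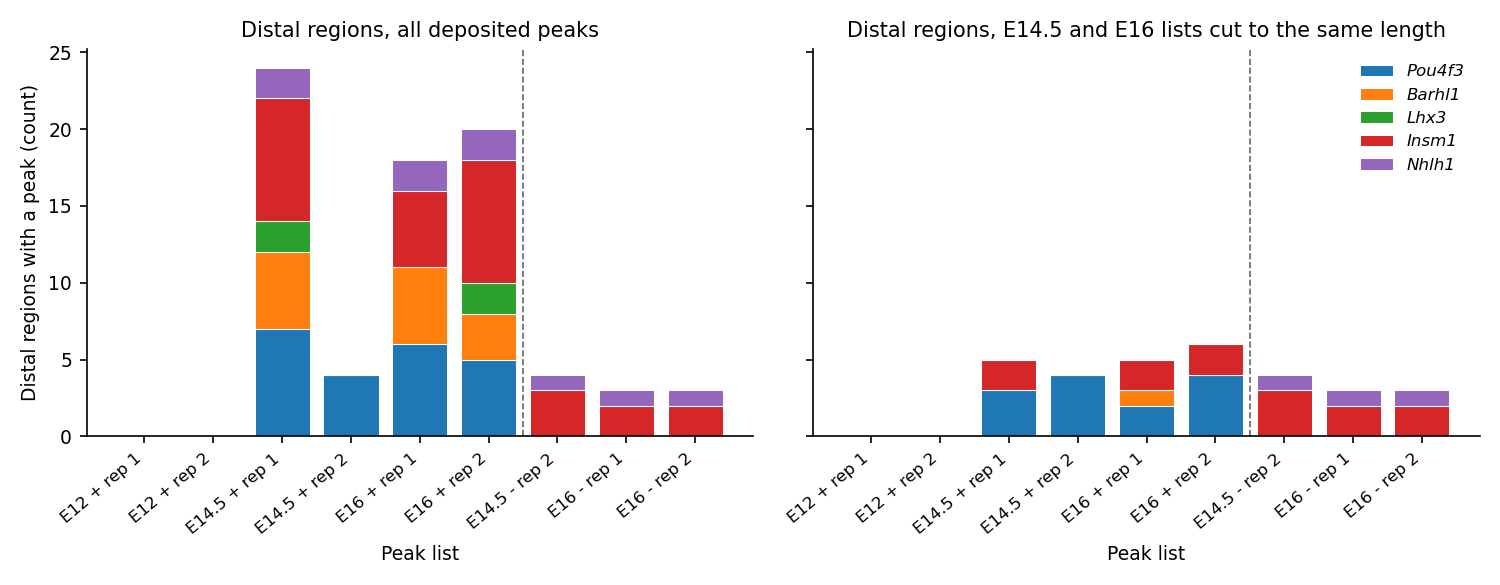
Distal regions with a peak (vertical axis, count) in each list (horizontal axis), stacked by gene, with all deposited peaks (left) and with the E14.5 and E16 lists at 22962 peaks each (right). Sox2-EGFP- lists are right of the dashed line. Pou4f3, Barhl1 and Lhx3 have 0 regions in the Sox2-EGFP- lists in both panels, and the counts in the longest Sox2-EGFP+ lists are smaller on the right.

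The members' distal regions were near other distal regions in width and distance. Their median width was 478 bp, beside 516 bp over all, and their median distance from the start site 22.4 kb, beside 30.9 kb. Of the 25, by annotation, 14 were intergenic, 8 intronic, 2 in coding exons and 1 in an untranslated region. They were in 2 lists at 9 regions and in 3 at 10, where 52.3% and 23.2% of all distal regions were. Median GC content of the central 300 bases was 54%, beside 50.3%.

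Among the 8 motifs, CAGCTG was in 11 of 25 of these windows, beside 23.5% of all distal windows of that length and 13.6% of 300-base promoter windows. CAGATG was in 7, beside 23.7% and 15.5%. At least 1 of these E-boxes was in 15, beside 41.5% of all. Both are letters that basic helix-loop-helix factors such as Atoh1 can bind. ACAAAG was in 13, beside 32.6% of distal and 18.5% of promoter windows, and ACAATG in 9, beside 20.5% and 11%. Sox factors bind such letters. At Insm1 each of these Sox motifs was in 5 of 8 windows, among them the window at 103 kb printed above. GGAATG was in 5 (20.4% and 13.8%), AGATAA in 2 (15.4% and 11.5%), TAATTA in 1 (4.82% and 5.69%) and GTTGCC in 3 (12.4% and 11.5%). Matches describe the letters alone, with no test.

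Other hair cell genes gave the members a scale. Of 11 other regulators, 5 had an E12 promoter peak, 10 had one in E14.5 and 10 in E16 Sox2-EGFP+ lists, and 4 of their 58 distal regions had an E12 peak. Those 4 were at 2 genes, Ikzf2, which had the most distal regions (12), and Atoh1 (10), with 2 each. Atoh1 itself had promoter peaks in 4 Sox2-EGFP+ and 3 Sox2-EGFP- lists and none at E12, the same presence as Lhx3. Of 16 effector genes, among them genes of the hair bundle and synapse, 4 had an E12 promoter peak, 12 had one at E14.5 and 11 at E16. They had 74 distal regions, 4 with an E12 peak, and the most were at Pcdh15 (16), a part of the tip link. Of the 9 prosensory genes, 7 had an E12 promoter peak, and 17 of their 126 distal regions had an E12 peak. These shares were not tested against each other or against the 9.64% of all distal regions. A count of 0 was not particular to the members, since 9 of the 11 regulators and 12 of the 16 effectors had no distal region with an E12 peak either, 2 of each because they had no distal region.

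Genes with the most similar counts over the 9 lists were found by the summed difference in distal regions and promoter presence. For Pou4f3 they were Otos and Tbx19, at a difference of 7, and for Barhl1 Cckar and Islr2, at 5. For Insm1 they were Gm4793 and Rps13-ps1, at 3, and for Gfi1 Gramd1c and Hpn, at 0. At Lhx3, 52 genes were tied at 0 and at Nhlh1 6 at 1. A pattern of few regions is shared by many genes, and that of Pou4f3 was the farthest from its nearest match.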

How the data were processed

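ATAC-seq peaks of 9 sorted samples were analysed as deposited by the authors. The submitters' processing notes and the study's methods name Trim Galore, Bowtie2, Picard, SAMtools, MACS2, bedtools and the build mm9. MACS2 called each sample alone, and the authors removed peaks without an overlapping peak in another sample of the same cell type. The deposited values are fold enrichment over local background (a ratio), -log10 p and -log10 q, and the summit position. Rank percentiles were by -log10 p within a list. Python 3.11.15, pandas 2.3.3, SciPy 1.17.1 and pysam 0.24.0 were used, and the assignment, merging, tests and motif search were tested on simulated data. A peak counted in a promoter with 1 bp of overlap. The members and lists were chosen with earlier results of these data known. All 6 genes are named, as are listed genes with the most regions or none. No RNA was measured, and reads were not analysed here.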

Additional observations from a re-analysis of the deposited data

How the results depend on the processing

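Of 126 alternatives for the counts, 19 moved the count by more than 1.5 times. Many of the others could not move it, as they leave out lists or peaks that the count does not use, so that they are no measure of how firm the counts are. With every list at the length of the shortest, promoter peaks were at 0 members at E14.5, 1 at E16 and 0 in Sox2-EGFP- cells, and distal regions numbered 0 in all and 0 in Sox2-EGFP+ lists alone. Requiring a peak in every list of a group gave 0 members at E12, 2 at E14.5 and 2 at E16. Assigning peaks to all annotated transcripts gave 15 distal regions, 1 of them at Gfi1, and 13 in Sox2-EGFP+ lists alone. Both E16 replicates 1 shared a submission tag that no other list had, and without them the E16 promoter count was 2. E12 replicate 2, the list with the 1 E12 peak of the members, also carried a tag of its own. With the E14.5 and E16 lists at the length of the shortest of them, chosen after seeing the data, promoter counts were 2 at E14.5 and 2 at E16, and distal regions 13, with 9 in Sox2-EGFP+ lists alone. Over the lists of E14.5 and E16 alone, also chosen after seeing the data, 2 distal regions of members had an unadjusted Fisher's exact p under 0.05 in place of 0, and 1 member promoter as before. These settings use fewer peaks, fewer lists or more start sites by construction. Leaving out 1 list at a time gave 0 to 1 members at E12, 2 to 4 at E14.5, 2 to 4 at E16 and 1 in Sox2-EGFP- cells. The count of 25 distal regions was not tested by this, since the authors kept only peaks found again in another sample of the same cells, so that each region was in at least 2 lists, and the same holds for the 21 in Sox2-EGFP+ lists alone. Nor was the 0 with an E12 peak, which settings that remove peaks or lists cannot raise. The Lhx3 difference was above 0 in all 10 alternatives, with an adjusted p under 0.05 in 0. It was 27.2 with ranks by fold enrichment (exact permutation p = 0.229) and 26.1 to 41.2 with 1 list left out. In ranks counted from the top Sox2-EGFP+ lay 3603 places nearer the top on average, which was taken as above 0. With the replicate number as a block the Lhx3 difference was 27.6 over 3 pairs. An exact sign-flip test gave p = 0.25 for it, the smallest that test can give. For the pairing, the study's methods state that Sox2-EGFP- cells were sorted alongside for part of the samples, without naming the replicates, and both E16 samples of a number share a submission tag. A figure legend of the study describes E16 Sox2-EGFP- cells as collected in parallel. Its supplement places replicate 1 of both E16 populations in a sequencing batch apart from all other samples. At E16 the deviations of the replicates in the 2 populations correlated with r = 0.13 across 11744 genes, which are not independent. Read depth was not used here, and the E12 lists, the shortest, limit what can be seen at that stage.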
